A study of Saccharomyces cerevisiae with 6 samples.

Results

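The vacuole of budding yeast, Saccharomyces cerevisiae, is its main site of protein breakdown, and the transcripts of its proteases and their inhibitors were read here in cells deleted for the GATA factor Gat1 or the GATA factor Dal80. The 10 genes, of 5795 protein-coding genes in the deposited table, were taken by name. They are the endopeptidase genes PEP4 and PRB1, the carboxypeptidase genes PRC1 and CPS1, the aminopeptidase genes LAP4, APE3, DAP2 and LAP3, and the inhibitor genes PAI3 and PBI2. The 6 strand-specific libraries of rRNA-depleted total RNA fell into 3 groups of 2 biological replicates. The first group was gat1Δ cells in glutamine-containing medium, the next gat1Δ cells in proline-containing medium, and the last dal80Δ cells in glutamine-containing medium. Gat1 is known to activate, and Dal80 to repress, genes that let yeast use poor nitrogen sources. No wild-type library was analysed here, so each contrast with dal80Δ sets one deletion strain against another and cannot be assigned to either deletion alone. The strains also differed in markers of mating type, as given below. The labels give no further genotype and no concentration of either nitrogen source.

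Vacuolar proteases are made as inactive precursors. Proteinase A, the product of PEP4, starts their activation in the acidic vacuole, and proteinase B, the product of PRB1, completes much of it. Both have a small inhibitor protein in the cytosol, encoded by PAI3 and PBI2. The pathway is known for degrading the cargo of autophagy and endocytosis, which returns amino acids to cells short of nitrogen. Lap3, the bleomycin hydrolase of yeast, is known as a cytosolic enzyme, so its gene stands among these genes as an aminopeptidase and not as a resident of the vacuole.

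The region upstream of each gene was read from the RefSeq R64 genome, because the factors under study bind DNA containing GATA. The window ran from 400 to 101 bases before the start codon, 300 bases in all. It was searched on both strands for GATAAG (the core site of GATA factors), AGGGG (the stress response element of Msn2 and Msn4) and TGACTC (the core site of Gcn4). GATAAG was found in the windows of 5 of the 10 genes, PEP4, PRB1, PRC1, CPS1 and APE3, against 14.0% of 5771 windows of all genes. AGGGG was found in 9 of the 10, DAP2 being the exception, against 23.9% of all windows. The 5 genes with GATAAG also held AGGGG, a combination found in 3.57% of all windows. TGACTC was found in 0 of the 10, against 8.63%. The window of DAP2 shares 158 bases with the coding region of its neighbour YHI9, and that of APE3 shares 57 bases with YBR285W. A match is a description of letters and not evidence of binding.

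The windows of PEP4, PRB1, PRC1, CPS1 and PAI3 are shown because their genes carry the largest changes described below or stand at the head of the activation cascade. Each is given 5′ to 3′ on the strand of its gene, with GATAAG and AGGGG in capitals, or as CTTATC and CCCCT where the match lies on the opposite strand. The windows lie at chr16:261032-261331 (minus strand) for PEP4, chr5:42054-42353 (minus) for PRB1, chr13:861522-861821 (plus) for PRC1, chr10:97337-97636 (plus) for CPS1 and chr13:610466-610765 (minus) for PAI3. In CPS1 a pair of GATAAG matches overlaps by a single base, and 2 or more matches were found in 1.49% of all windows. PAI3 holds 3 AGGGG matches and no GATAAG, and 3 or more AGGGG matches were found in 0.832% of all windows.
PEP4: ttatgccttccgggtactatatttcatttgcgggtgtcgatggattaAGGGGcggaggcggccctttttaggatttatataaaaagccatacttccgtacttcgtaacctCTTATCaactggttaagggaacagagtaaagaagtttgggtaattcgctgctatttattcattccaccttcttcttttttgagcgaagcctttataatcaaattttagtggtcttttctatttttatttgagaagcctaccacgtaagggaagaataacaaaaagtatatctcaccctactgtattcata
PRB1: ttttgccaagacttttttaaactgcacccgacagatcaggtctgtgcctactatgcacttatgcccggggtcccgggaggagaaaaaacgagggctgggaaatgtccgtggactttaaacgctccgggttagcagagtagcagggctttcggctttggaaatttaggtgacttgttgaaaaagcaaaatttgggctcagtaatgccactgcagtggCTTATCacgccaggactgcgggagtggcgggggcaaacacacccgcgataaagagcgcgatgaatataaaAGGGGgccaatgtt
PRC1: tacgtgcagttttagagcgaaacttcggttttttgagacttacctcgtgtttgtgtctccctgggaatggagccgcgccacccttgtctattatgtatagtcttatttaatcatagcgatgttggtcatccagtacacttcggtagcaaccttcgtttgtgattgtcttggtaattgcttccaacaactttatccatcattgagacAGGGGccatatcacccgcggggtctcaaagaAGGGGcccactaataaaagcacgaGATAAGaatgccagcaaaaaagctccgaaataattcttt
CPS1: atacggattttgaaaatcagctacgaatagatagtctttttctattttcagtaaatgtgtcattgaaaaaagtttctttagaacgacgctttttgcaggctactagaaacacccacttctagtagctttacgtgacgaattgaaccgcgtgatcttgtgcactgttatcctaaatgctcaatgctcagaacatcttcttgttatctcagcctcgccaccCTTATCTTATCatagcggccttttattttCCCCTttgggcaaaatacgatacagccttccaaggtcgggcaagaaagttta
PAI3: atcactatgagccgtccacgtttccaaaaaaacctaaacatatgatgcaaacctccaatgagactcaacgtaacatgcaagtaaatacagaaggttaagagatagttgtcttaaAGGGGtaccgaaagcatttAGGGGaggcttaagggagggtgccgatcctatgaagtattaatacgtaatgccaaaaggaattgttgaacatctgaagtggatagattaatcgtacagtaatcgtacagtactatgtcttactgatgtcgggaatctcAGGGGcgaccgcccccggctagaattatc

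Recovered reads per library ran from 17009715 to 34718641, counted over 6192 features, and the deposited values were scaled so that the genes of each library summed to between 11821954 and 11822463 reads. Levels are given as density, the scaled reads per base of the open reading frame, so that genes can be compared per length. GAT1 had 2, 2, 3 and 2 reads in the gat1Δ libraries and 1603 and 1062 in dal80Δ. DAL80 had 1 and 0 reads in dal80Δ, but also 2 and 1 in gat1Δ glutamine cells, against 195 and 497 in gat1Δ proline, so in glutamine its reads do not tell the strains apart. Markers of the mating types differed between the groups. Summed over the 7 genes specific to a cells, scaled reads ranged from 171 to 193 in gat1Δ glutamine, from 4922 to 6517 in gat1Δ proline, and from 25721 to 27468 in dal80Δ. Over the 4 genes specific to α cells they ranged from 36055 to 36270, from 84262 to 89581 and from 433 to 448. None of these markers was at 0 in any library. The α-specific genes thus held most of these reads in gat1Δ glutamine and the a-specific genes in dal80Δ. The strain contrast therefore also sets α markers against a markers, and the summed reads of both sets were higher in gat1Δ proline than in gat1Δ glutamine. Of the α-specific genes, MF(ALPHA)1 had a log2 fold change of 1.89 in proline. Those of MF(ALPHA)2, STE3 and SAG1 were 0.21, 0.50 and 0.52, against a median of 0.50 for all genes. The marker sums differ in both contrasts below, and the part of the markers in the results was not tested.

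The 10 genes spanned a wide range of levels. In gat1Δ glutamine cells PEP4 was highest, at a density of 9.29 ± 0.435 (SD, n = 2), followed by PRC1 at 7.28 ± 0.587 and APE3 at 6.97 ± 0.721, which differed by less than their spread. PBI2 (2.47 ± 1.08) and CPS1 (2.26 ± 0.116) followed, within the spread of PBI2. LAP3 (1.91 ± 0.143) lay below CPS1 without overlap of their libraries, and PRB1 (1.88 ± 0.0295) differed from LAP3 by less than their spread. LAP4 (1.19 ± 0.0941) and DAP2 (0.815 ± 0.0142) came next, and PAI3 was lowest at 0.0511 ± 0.0115. PEP4 stood above 96.4% of all genes in this group and PAI3 above 11.5%.

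In proline the order of the same densities changed at the top. APE3 (5.58 ± 0.464) and PEP4 (5.45 ± 0.918) led, within their spread of each other. CPS1 (4.55 ± 0.991), PBI2 (4.17 ± 0.530), PRC1 (3.54 ± 1.06) and LAP3 (3.15 ± 0.255) followed, each within the spread of the next, and then PRB1 (2.10 ± 0.0785). In dal80Δ glutamine cells the order of the 3 highest was that of gat1Δ glutamine, with PEP4 at 17.4 ± 0.693, PRC1 at 13.2 ± 0.841 and APE3 at 11.0 ± 0.463, all SDs of n = 2. CPS1 (3.46 ± 0.0773), PRB1 (3.43 ± 0.281) and PBI2 (2.88 ± 0.820) came next, within their spread, and LAP3 (1.97 ± 0.243) and LAP4 (1.88 ± 0.224) did not differ beyond theirs. LAP4, DAP2 and PAI3 had the 3 lowest means in each of the 3 groups.

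**Figure D1:**
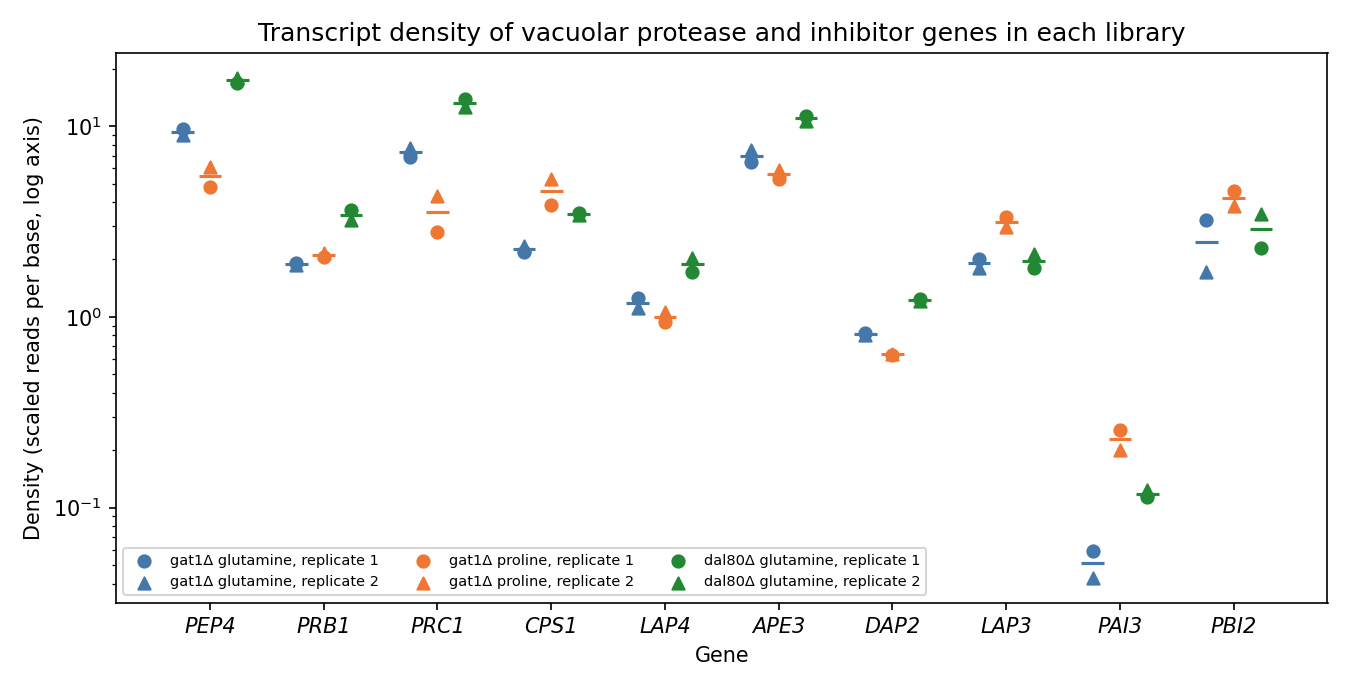
Density of each gene (scaled reads per base of the open reading frame, log axis) in the 6 libraries. Circles are replicate 1, triangles replicate 2 and short bars group means, and the dal80Δ libraries of PEP4 at 16.9 and 17.9 lie above its other 4 libraries.

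The contrast of proline with glutamine asked how these transcripts differ with the nitrogen source in cells without Gat1. With the deposited scaling PEP4 and PRC1 fell in proline and CPS1 and the inhibitor gene PAI3 rose, CPS1 not passing under every scaling tried. Of the 10 genes, 4 rose (CPS1, LAP3, PAI3 and PBI2), 3 fell (PEP4, PRC1 and DAP2) and 3 did not pass. Over all 5594 genes tested 71.6% passed, 56.5% higher and 15.1% lower, by limma at a threshold of 0.05 on the adjusted p. The 7 calls among the 10 lie near that share, and all genes also moved in both directions. The median log2 fold change of the 10 genes was -0.04 and that of all genes 0.50. The median gene moved to 0.06 after rescaling by TMM factors, which assume that most genes are unchanged, and to 0.23 after rescaling by snoRNA totals. With TMM scaling 2 of the 10 genes were higher (CPS1 and PAI3) and 5 lower (PEP4, PRC1, LAP4, APE3 and DAP2), against 33.8% and 29.8% of all genes. Median-ratio scaling called 1 higher and 6 lower, against 31.4% and 31.7%, and snoRNA scaling 2 and 2, against 29.5% and 14.6%. In bulk RNA, a change in the RNA per cell and a change in the mix of cells cannot be told apart.

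Of the endopeptidase genes, PEP4 fell and PRB1 did not pass with the deposited scaling. PEP4 (YPL154C, build R64, chromosome 16, 259714 to 260931, minus strand) had densities of 9.59 and 8.98 in gat1Δ glutamine and of 4.80 and 6.10 in gat1Δ proline. The groups did not overlap, as was so for all 10 genes, 5 of them higher and 5 lower, and for 86.5% of all genes (65.9% higher and 20.6% lower). The log2 fold change of PEP4 was -0.78 ± 0.15 (SE, adjusted p = 0.00157), or -1.27 relative to the median gene. PRB1 (YEL060C, chromosome 5, 40046 to 41953, minus strand) had densities of 1.90 and 1.86 in glutamine and of 2.05 and 2.16 in proline. Its log2 fold change of 0.16 ± 0.13 did not pass (adjusted p = 0.286), and its sign depended on the scaling. PRB1 stood at -0.34 after TMM scaling (adjusted p = 0.0610) and at -0.14 after snoRNA scaling (adjusted p = 0.731). It passed as lower, as PEP4 did, after median-ratio scaling (-0.39, adjusted p = 0.0397) and with DESeq2 on recovered reads (-0.40, adjusted p = 0.0214).

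The carboxypeptidase genes moved in opposite directions. PRC1 (YMR297W, chromosome 13, 861922 to 863520, plus strand) encodes carboxypeptidase Y, the classical marker of protein sorting to the vacuole. Its densities were 6.87 and 7.70 in gat1Δ glutamine and 2.79 and 4.29 in gat1Δ proline, a log2 fold change of -1.07 ± 0.20 (adjusted p = 0.00118) and of -1.56 relative to the median gene. CPS1 (YJL172W, chromosome 10, 97737 to 99467, plus strand) encodes carboxypeptidase S, a zinc enzyme that reaches the vacuole as a membrane protein. Its densities were 2.18 and 2.34 in glutamine and 3.85 and 5.25 in proline, a log2 fold change of 0.99 ± 0.16 (adjusted p = 0.000599) and of 0.49 relative to the median gene. After TMM scaling CPS1 was still higher by 0.48 with an adjusted p = 0.0499, and its call ended with scaling by median ratios (0.43, adjusted p = 0.0748).

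The ratio of CPS1 to PRC1 within a library does not depend on how libraries were scaled. This ratio was added after the values were seen. The density of CPS1 relative to that of PRC1 was 31.7% and 30.4% for gat1Δ in glutamine. It was 138% and 122% for gat1Δ in proline, and 25.5% and 27.0% for dal80Δ. CPS1 thus exceeded PRC1 in both proline libraries and in none of the 4 glutamine libraries. On the log2 scale the ratio was 0.38 ± 0.12 in proline and -1.68 ± 0.04 in gat1Δ glutamine (SD, n = 2), a difference of 2.05. The exact two-sided permutation test gave p = 0.333, the smallest that 2 libraries against 2 allow.

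**Figure D2:**
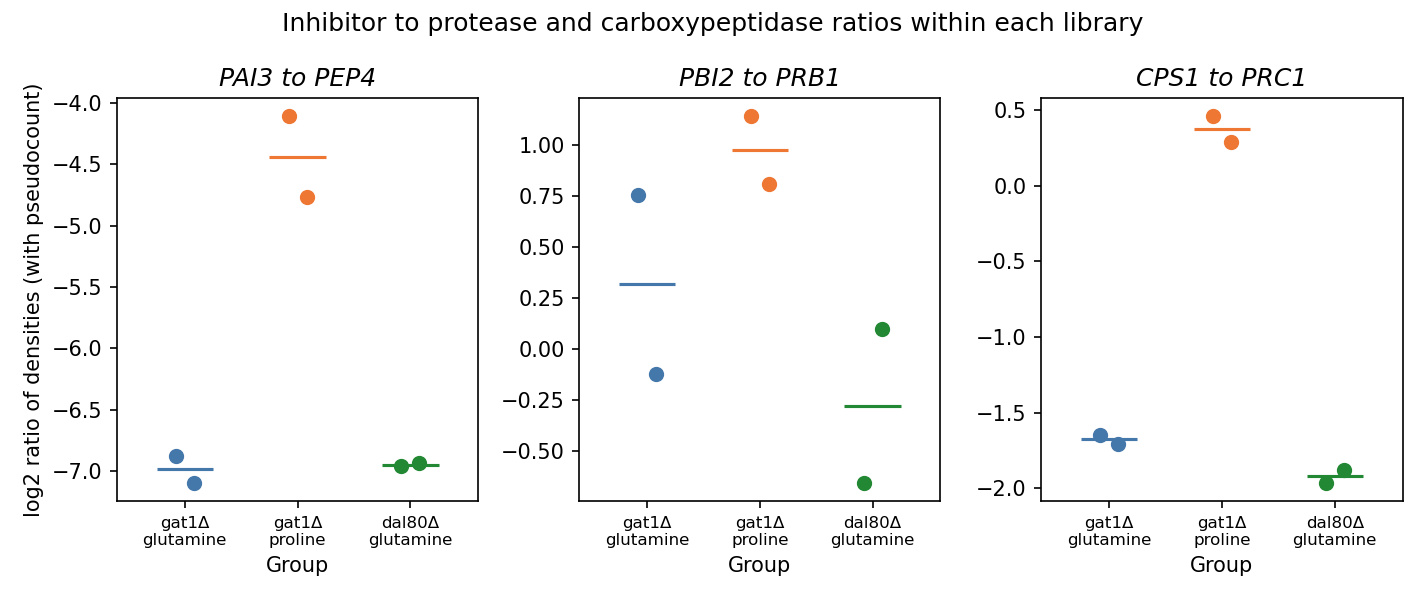
Log2 ratio of densities, with the pseudocount added to both, for PAI3 to PEP4, PBI2 to PRB1 and CPS1 to PRC1. Points are libraries and bars group means, and the proline libraries lie highest in each panel, with CPS1 to PRC1 at 0.46 and 0.29.

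Among the aminopeptidase genes, DAP2 fell and LAP3 rose. DAP2 (YHR028C, chromosome 8, 164978 to 167434, minus strand), for a dipeptidyl aminopeptidase of the vacuolar membrane, had densities of 0.825 and 0.805 in glutamine and of 0.635 and 0.642 in proline (log2 -0.34 ± 0.12, adjusted p = 0.0283). The call of DAP2 was lost whichever of the 6 libraries was left out, at adjusted p values from 0.0623 to 0.0871, and with snoRNA scaling (-0.64, adjusted p = 0.0803). LAP3 (YNL239W, chromosome 14, 200569 to 201933, plus strand) had densities of 2.01 and 1.81 in glutamine and of 3.33 and 2.97 in proline (log2 0.71 ± 0.14, adjusted p = 0.00182). Relative to the median gene LAP3 stood at 0.22, and its call ended after TMM scaling (0.21, adjusted p = 0.228).

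LAP4 and APE3 did not pass with the deposited scaling. LAP4 (YKL103C, chromosome 11, 246138 to 247682, minus strand) encodes aminopeptidase I, which reaches the vacuole by the cytoplasm-to-vacuole targeting pathway. Its densities were 1.25 and 1.12 in glutamine and 0.935 and 1.06 in proline (log2 -0.24 ± 0.14, adjusted p = 0.153). APE3 (YBR286W, chromosome 2, 774700 to 776313, plus strand), for aminopeptidase Y, had densities of 6.46 and 7.48 in glutamine and of 5.25 and 5.91 in proline (log2 -0.32 ± 0.14, adjusted p = 0.0673). Both lay below the median gene, by -0.74 and -0.82, and both were lower after TMM scaling, with adjusted p values of 0.00271 and 0.00286.

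The inhibitor genes both rose with the deposited scaling. PAI3 (YMR174C, chromosome 13, 610159 to 610365, minus strand), for the inhibitor of proteinase A, was the thinnest of the 10 in reads, with 14 and 16 in gat1Δ glutamine and 53 and 68 in gat1Δ proline. The exact 95% Poisson intervals of these counts were 7.65 to 23.5, 9.15 to 26.0, 39.7 to 69.3 and 52.8 to 86.2. They cover the counting error of reads alone and not the spread between libraries. The reads carry no molecular identifiers, so the intervals are for reads and not for molecules. Its densities were 0.0592 and 0.0430 in glutamine and 0.256 and 0.201 in proline, a log2 fold change of 1.77 ± 0.17 (adjusted p = 3.41e-05), which the pseudocount understates for a gene this low. The log2 value was 2.12 with a pseudocount 10 times smaller and 0.71 with one 10 times larger, and passed with both. PAI3 stood 1.27 above the median gene and was higher under every scaling tried, at 1.34 with TMM and 1.53 with snoRNA totals.

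PBI2 (YNL015W, chromosome 14, 605384 to 605611, plus strand), for the inhibitor of proteinase B, had densities of 3.24 and 1.71 in gat1Δ glutamine and of 4.55 and 3.80 in gat1Δ proline. The spread between the glutamine replicates was the widest of the 10 genes relative to its mean. Its log2 fold change was 0.81 ± 0.29 (adjusted p = 0.0312). The call ended after TMM scaling (0.31, adjusted p = 0.348) and without gat1Δ glutamine replicate 2 (0.36, adjusted p = 0.235), without gat1Δ proline replicate 1 (0.69, adjusted p = 0.138) or without gat1Δ proline replicate 2 (0.94, adjusted p = 0.0503). The open reading frames of the inhibitor genes are the shortest of the 10, at 207 bases for PAI3 and 228 for PBI2 against 1218 to 2457 for the protease genes.

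Relative to the protease it inhibits, PAI3 was higher in proline. Its density was 0.617% and 0.479% of that of PEP4 in the gat1Δ glutamine libraries and 5.34% and 3.30% in the gat1Δ proline libraries. With the pseudocount the log2 ratio was -6.98 ± 0.16 in glutamine and -4.44 ± 0.47 in proline (SD, n = 2), a difference of 2.54 that is 1.46 with a pseudocount 10 times larger. The density of PBI2 was 170% and 91.8% of that of PRB1 in glutamine and 222% and 176% in proline, a log2 difference of 0.66. Without gat1Δ glutamine replicate 2 that difference was 0.22, and without replicate 1 it was 1.10. The exact two-sided permutation p was 0.333 for both ratios, again the smallest the design allows.

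**Figure D3:**
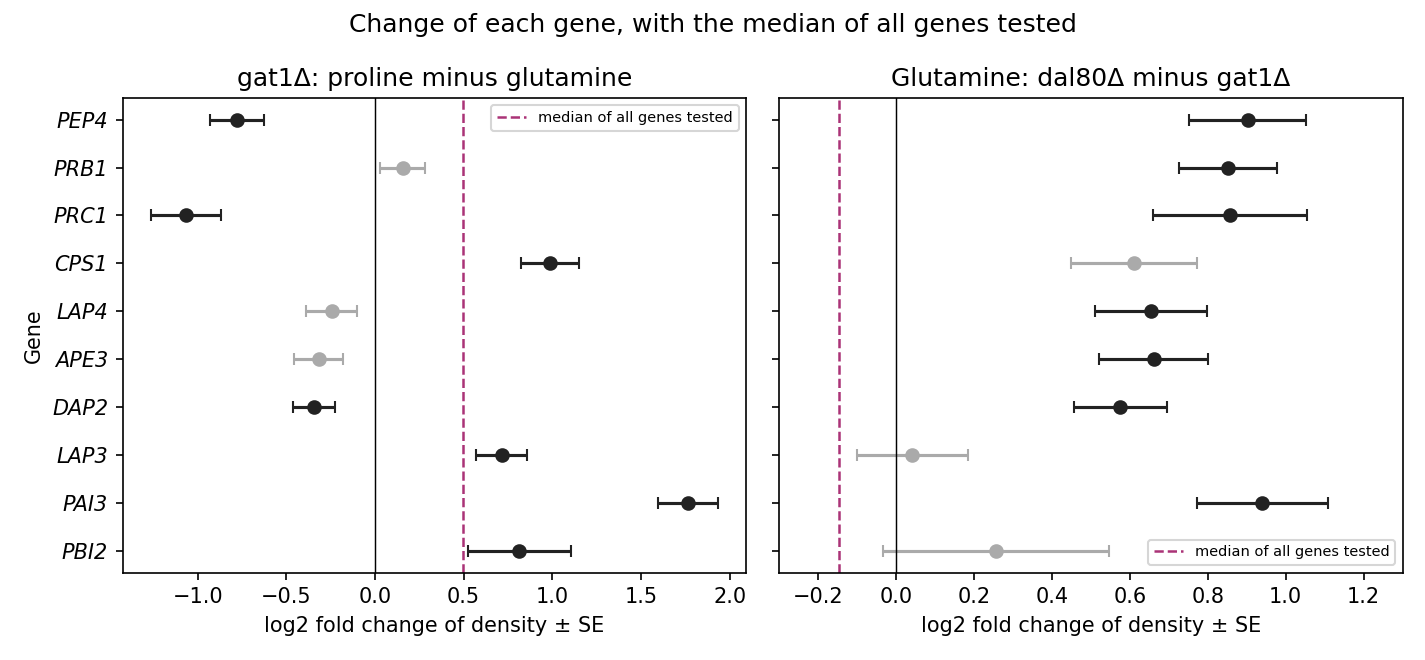
Log2 fold change of density ± SE for each gene in both contrasts. Black points passed an adjusted p of 0.05, grey points did not, and the dashed line is the median of all genes tested, at 0.50 for proline and -0.15 for dal80Δ.

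The contrast of the strains in glutamine gave another picture. Most of the protease genes were higher in dal80Δ than in gat1Δ, by 1.49-fold to 1.87-fold for those that passed. Of the 10 genes, 7 were higher (PEP4, PRB1, PRC1, LAP4, APE3, DAP2 and PAI3), 0 were lower, and CPS1, LAP3 and PBI2 did not pass. Over all 5594 genes 5.45% passed, 3.97% higher and 1.48% lower. The median log2 fold change of the 10 was 0.66, and that of all genes was -0.15. All 10 lay above the median gene. This contrast shares its gat1Δ glutamine libraries with the one above.

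The calls depended on the scaling and on single libraries. TMM scaling, with a median gene of -0.01, called 8 of the 10, CPS1 being added, against 6.19% of all genes called higher and 0.894% lower. Median-ratio scaling also called 8, against 6.22% and 1.04%. SnoRNA scaling called 0 of the 10 in limma, with log2 values of 0.45 to 0.85 for the 7, against 1.86% of all genes higher and 0.679% lower. On recovered reads edgeR and DESeq2 each called 8 of the 10. Of all 5594 genes they called 386 and 438 higher and 67 and 82 lower. Leaving out any library of either strain in glutamine left fewer calls among the 10, and also fewer among all genes. Such a fit has 1 library in a group, which is assumed to vary like the others. Over all the alternatives the log2 values of the 7 stayed positive, from 0.77 to 1.06 for PEP4 and from 0.31 to 1.39 for PAI3.

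The densities of 8 of the 10 genes did not overlap between the strains and were higher in dal80Δ, as was so for 17.4% of all genes. Over all genes 63.9% did not overlap, 46.4% being lower. PEP4 had densities of 16.9 and 17.9 in dal80Δ against 9.59 and 8.98 in gat1Δ, a log2 fold change of 0.90 ± 0.15 (adjusted p = 0.0107). PRB1 had 3.62 and 3.23 against 1.90 and 1.86 (0.85 ± 0.13, adjusted p = 0.00573), the smallest adjusted p of the 10 in this contrast. The folds of the endopeptidase genes were 1.87 for PEP4 and 1.81 for PRB1.

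Of the carboxypeptidase genes PRC1 passed in this contrast and CPS1 did not. PRC1 had densities of 13.8 and 12.6 in dal80Δ against 6.87 and 7.70 in gat1Δ (log2 0.86 ± 0.20, adjusted p = 0.0414). CPS1 had 3.52 and 3.41 against 2.18 and 2.34 (0.61 ± 0.16, adjusted p = 0.0645). Both lay near the threshold, and after TMM scaling both passed, with adjusted p = 0.0303 for PRC1 and 0.0451 for CPS1. The ratio of CPS1 to PRC1 differed by -0.25 on the log2 scale between the strains, against 2.05 between the media.

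Of the aminopeptidase genes 3 of 4 were higher in dal80Δ, against 3.97% of all genes. APE3 had densities of 11.3 and 10.7 against 6.46 and 7.48 (log2 0.66 ± 0.14, adjusted p = 0.0305). LAP4 had 1.72 and 2.04 against 1.25 and 1.12 (0.65 ± 0.14, adjusted p = 0.0345). DAP2 had 1.24 and 1.21 against 0.825 and 0.805 (0.58 ± 0.12, adjusted p = 0.0286). LAP3, the gene of the cytosolic enzyme, had 1.80 and 2.14 against 2.01 and 1.81, so that its groups overlapped (0.04 ± 0.14, adjusted p = 0.861).

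Of the inhibitor genes PAI3 passed and PBI2 did not, and the difference between their changes was not tested. PAI3 had 53 and 48 reads in dal80Δ, with densities of 0.113 and 0.123 against 0.0592 and 0.0430 in gat1Δ (log2 0.94 ± 0.17, adjusted p = 0.0146). This value was 1.19 with a pseudocount 10 times smaller and 0.31 with one 10 times larger (adjusted p = 0.0492). Its density was 0.672% and 0.689% of that of PEP4 in dal80Δ, against 0.617% and 0.479% in gat1Δ. With the pseudocount the log2 ratio differed by 0.04 and the groups overlapped (exact two-sided permutation p = 1). PBI2 had densities of 2.30 and 3.45 in dal80Δ against 3.24 and 1.71 (0.26 ± 0.29, adjusted p = 0.573), and the groups overlapped. The ratio of PBI2 to PRB1 was 63.3% and 107% in dal80Δ, a log2 difference of -0.60 from gat1Δ glutamine (exact two-sided permutation p = 0.667).

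**Figure D4:**
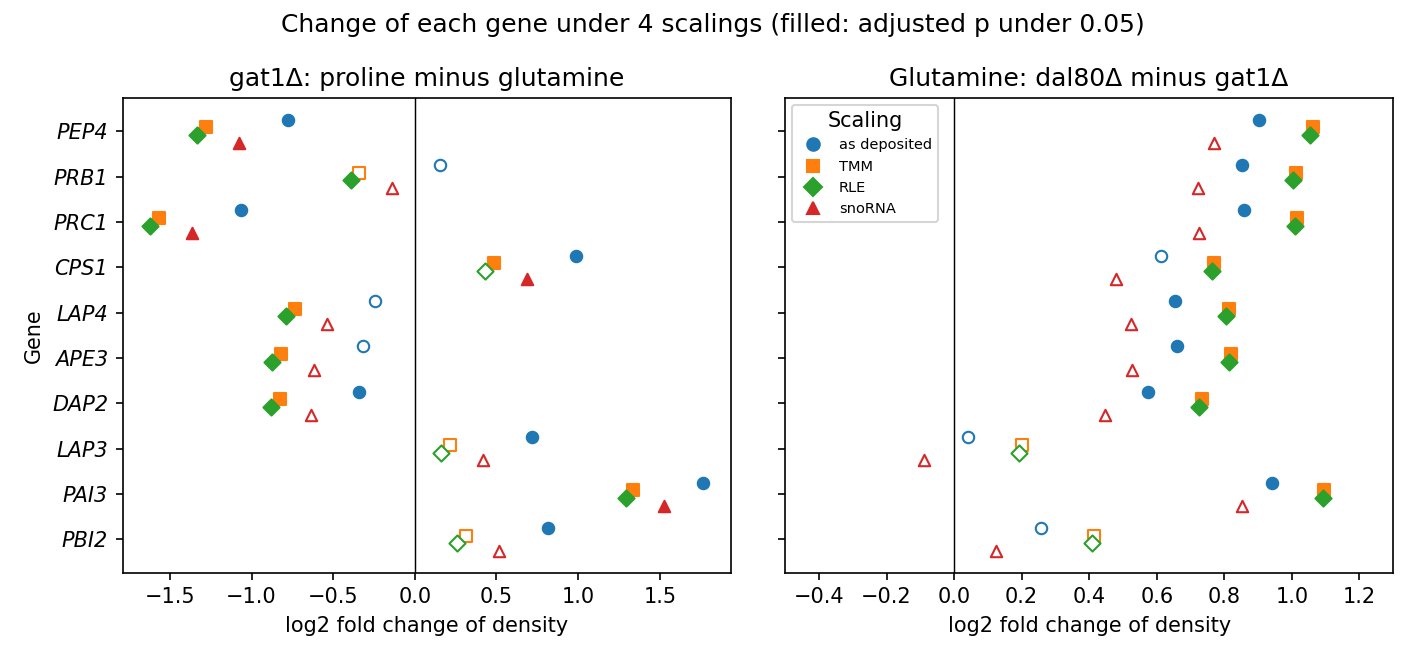
Log2 fold change of density for each gene in both contrasts with the deposited scaling and after TMM, median-ratio (RLE) and snoRNA rescaling. Filled symbols passed an adjusted p of 0.05, and PRB1 in proline lies at 0.16 as deposited and at -0.34 after TMM rescaling.

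Summed over the 10 genes, the density came to 34.1 ± 0.383 for gat1Δ with glutamine, 30.4 ± 2.78 for gat1Δ with proline and 56.5 ± 0.307 for dal80Δ (SD, n = 2). These genes took 0.412%, 0.352% and 0.692% of the reads of all genes in the 3 groups. Within the sum, PEP4 made up 27.2% ± 0.969 in gat1Δ glutamine, 17.8% ± 1.39 in proline and 30.7% ± 1.06 in dal80Δ. PRC1 made up 21.4% ± 1.96, 11.5% ± 2.43 and 23.4% ± 1.61. The shares of CPS1 were 6.63% ± 0.415, 14.9% ± 1.90 and 6.12% ± 0.170, and those of LAP3 5.60% ± 0.358, 10.4% ± 1.79 and 3.49% ± 0.411. In both proline libraries the shares of PEP4, PRC1 and APE3 were below their shares in all 4 glutamine libraries. Those of CPS1, LAP3, PBI2, PRB1 and PAI3 were above theirs, and the shares of LAP4 and DAP2 overlapped.

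**Figure D5:**
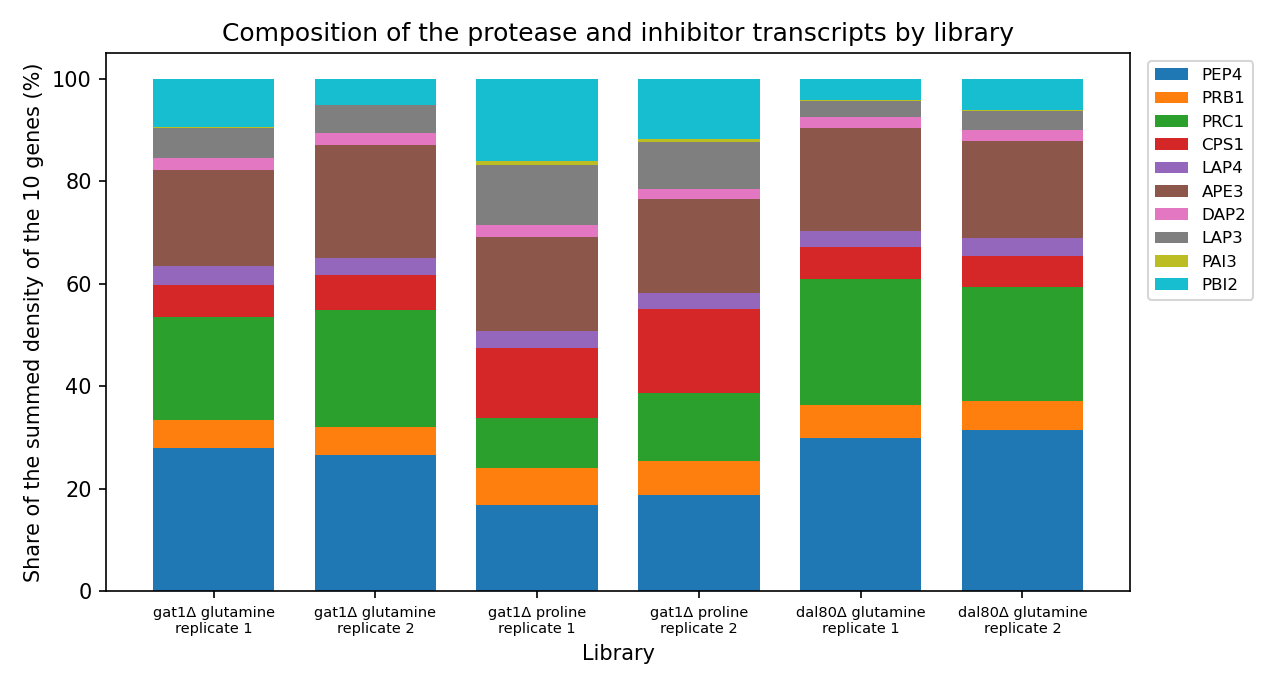
Share of each gene in the summed density of the 10 genes, per library, in percent. PEP4 takes 16.9% and 18.8% in the proline libraries against 26.5% to 31.5% in the 4 glutamine libraries.

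Peptidase genes related to these by family were read next, from lists taken from background knowledge. The counts in proline are to be read against the 56.5% of all genes that rose and the 15.1% that fell, or 33.8% and 29.8% after TMM scaling. Of 10 related genes 9 could be tested. In proline 3 rose and 5 fell, with a median log2 of -0.39 against 0.50 for all genes. YBR139W, a vacuolar carboxypeptidase gene of the PRC1 family, fell by 1.24 on the log2 scale (adjusted p = 0.000568), as PRC1 did. The aspartyl protease genes of the cell surface YPS3 (-2.06 ± 0.19) and MKC7 (-1.06 ± 0.14) fell too. BAR1 (3.10 ± 0.14), which encodes the α-factor protease, is specific to a cells and also counted among the mating-type markers. STE13 (0.55 ± 0.13), for the dipeptidyl aminopeptidase that matures α-factor, and YSP3 (0.50 ± 0.13), a gene related to PRB1, rose, and their calls ended after TMM scaling at 0.09 and 0.09. Between the strains 3 were higher and 0 lower in dal80Δ, against 3.97% and 1.48% of all genes. They were BAR1 (5.95 ± 0.14), YBR139W (1.00 ± 0.20) and YSP3 (0.64 ± 0.13). With snoRNA scaling 1 of the 9 was higher, against 1.86% of all genes.

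Of 7 genes for other vacuolar hydrolases, 2 rose and 2 fell in proline. PHO8 (1.59 ± 0.14), for the vacuolar alkaline phosphatase, rose by most, and ATG15 (0.38 ± 0.13), for a lipase that breaks down autophagic bodies, also passed, with a value of -0.08 after TMM scaling. RNY1 (-0.68 ± 0.22), for an RNase of the T2 family, and PPN1 (-0.52 ± 0.14), for a polyphosphatase, fell. In dal80Δ 3 of the 7 were higher, against 3.97% of all genes, and the median of the 7 was 0.53. They were AMS1 (0.80 ± 0.18), for α-mannosidase, ATH1 (0.77 ± 0.13), for acid trehalase, and ATG15 (0.56 ± 0.13). With snoRNA scaling 0 of the 7 were called, against 1.86% of all genes higher.

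In the strain contrast limma called 0 of 15 genes of the vacuolar ATPase, which acidifies the vacuole, and 0 of 23 genes for delivery to it. Over all genes 5.45% were called, so a count of 0 in lists this short lies near that share. The medians of the 2 lists were 0.01 and -0.22, against -0.15 for all genes. In proline 8 of the 15 ATPase genes fell and 2 rose, with VMA1 (-0.93 ± 0.14), VMA2 (-0.88 ± 0.13) and STV1 (-0.88 ± 0.14) lowest and VMA8 (0.95 ± 0.17) and VMA10 (0.87 ± 0.14) highest. Of the 23 delivery genes 15 rose and 2 fell in proline, shares near those of all genes, and their median of 0.56 was near the 0.50 of all genes. Those with the largest changes were VPS41 (1.37 ± 0.20), VAM3 (1.19 ± 0.15) and ATG11 (1.15 ± 0.14), with VPS1 (-0.90 ± 0.13) and APL6 (-0.37 ± 0.14) lower. After TMM scaling the counts were 1 higher and 11 lower for the ATPase and 7 higher and 4 lower for delivery, where the median of the delivery genes was 0.12 against 0.06 for all genes. Of 10 cytosolic peptidase genes 4 rose and 4 fell in proline, among them FRA1 (1.16 ± 0.15) and DUG2 (-1.09 ± 0.13). Between the strains 0 of the 10 passed, again near the 5.45% of all genes.

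The genes closest to the endopeptidase genes over the 6 libraries were found by the root mean square difference of log2 densities, each centred on its own mean. For PEP4 these were TPO3 (0.0986), for a polyamine exporter, YDC1 (0.109), for a ceramidase, and GPD1 (0.111), for glycerol-3-phosphate dehydrogenase. Among the 10 genes PRC1 came nearest to PEP4, at 0.178, and PAI3 lay farthest, at 1.21. For PRB1 they were ATH1 (0.0646), YBR241C (0.0895) and SDH4 (0.0913), for a subunit of succinate dehydrogenase, and LAP4 came nearest among the 10, at 0.207. These are descriptions over 6 libraries in 3 groups.

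Genes other than these 10 were also read by the letters in the same window. Of 1323 tested genes with AGGGG, 9.30% were called higher in dal80Δ, against 2.17% of 4238 without it, and their median log2 was -0.04 against -0.18. Of 775 with GATAAG, 5.94% were called higher in dal80Δ, against 3.53% of 4786 without it. In proline 50.3% of the genes with AGGGG and 58.3% of those without it were called higher, and 61.7% and 55.5% for GATAAG. Genes sharing a motif share other features, which were not examined.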

How the data were processed

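Hot-phenol total RNA was depleted of rRNA and made into stranded libraries, sequenced as paired reads, per the labels' protocols. TopHat and build R64 are named in the submitters' processing notes, without roles or versions. The sources used here do not give the counting program or how strand and multiply mapping reads were handled. The authors deposited, per the file headers, a density signal and a read count for each of 6192 features. The count column held whole counts in gat1Δ proline replicate 1 and, in the other libraries, counts that the authors had scaled. The deposited density signal equalled the scaled count per base. Whole reads were recovered for 100% of positive values within 0.01 reads. A further 6 columns for groups were not used.

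A gene was tested if 2 or more libraries held 10 or more scaled reads, which kept 5594 genes and all 10 described here. The test was limma (version 3.58.1, R 4.3.3, trended) on log2(density + 0.0229). That pseudocount is the value below which 5% of gene densities above 0 lie. The fit took the group as its factor over all 6 libraries and had 3 residual degrees of freedom. P-values were adjusted by Benjamini-Hochberg over all genes tested, with a threshold of 0.05. The quasi-likelihood test of edgeR 4.0.16 and DESeq2 1.42.0 were run on recovered reads as alternatives; they called 453 and 520 genes between the strains and 3561 and 3390 between the media. Other alternatives covered filter, pseudocount, TMM, RLE and snoRNA scaling, threshold, replicate block, the 2 compared groups alone and each library left out. The limma step was also run on simulated data in which most genes were unchanged. That setting differs from the proline contrast, where most genes passed, so the run cannot speak for the calls there.

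The members, gene lists and motifs were chosen with earlier results of these data known. Named genes were the 10, the deleted genes, up to 3 rises and 3 falls per list and contrast, and the 3 nearest patterns to PEP4 and PRB1. ATG42 and PFF1 were found as YBR139W and YBR074W, and YOL153C was not found among the genes. RefSeq R64 held 5767 of the gene identifiers and placed 5735 of them (99.4%) at identical coordinates. The replicates are biological per the labels. The limma p-values compare a group difference with the spread between replicate libraries, estimated for each gene with the help of a trend over all genes.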

Additional observations from a re-analysis of the deposited data

How the results depend on the processing

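Over the alternatives, PEP4 and PRC1 stayed lower and PAI3 higher in proline, past the threshold wherever they were tested; PAI3 could not be tested at 50 scaled reads. Of the 10 genes, 7 were called in proline, 4 with snoRNA scaling, and 5 to 6 with a library left out; over all genes snoRNA scaling called 2465, and leaving out a library 3441 to 3907. PRB1 turned negative in proline with TMM (-0.34), RLE (-0.39, adjusted p = 0.0397), snoRNA scaling (-0.14), edgeR (-0.34) and DESeq2 (-0.40, adjusted p = 0.0214). Between the strains, where 305 genes and 7 of the 10 were called, the counts were 188 and 4 without a low-count filter, 142 and 0 with snoRNA scaling, 115 and 1 at an adjusted p of 0.01, and 520 and 8 with DESeq2; with a library left out they ranged from 111 to 405 and from 0 to 8. LAP3 turned negative there with snoRNA scaling (-0.090), and with a library left out ranged from -0.083 (without dal80Δ replicate 2) to 0.17, with -0.034 without gat1Δ glutamine replicate 2. PBI2 ranged from -0.20 (without gat1Δ glutamine replicate 2) to 0.71, with -0.036 without dal80Δ replicate 2. The ratio of PAI3 to PEP4 between the strains was -0.58 with a pseudocount 10 times larger, and -0.073 to 0.15 with a library left out. The cause of these shifts was not tested.

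Replicate numbers do not pair the libraries by the labels, and the correlations of same-numbered deviations were 0.01, -0.25 and -0.08. With the replicate block 208 genes and 3 of the 10 (PEP4, PRB1 and PAI3) were called between the strains, and 3886 and 6 in proline; with the dal80Δ numbers crossed, an alternative added after seeing the data, 409 and 8, and 4110 and 8. At 14 to 68 reads a library, depth limits the precision of PAI3 most among the 10.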
